A study of Oedaleus asiaticus with 9 samples.

Results

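Small RNAs of the conserved insect cluster of miR-34, miR-277 and miR-317 were examined in female *Oedaleus asiaticus*, a grasshopper of Asian grasslands. All 5 cluster entries chosen by name (miR-277-y, miR-34-x, miR-317-y, miR-317-z and miR-317-x) were found among the 365 miRNA entries of the deposited table. The groups were nymphs of the 3rd instar, nymphs of the 5th instar and adults after emergence, all of them normally fed, untreated females aged 3 days, with 3 libraries per stage and 9 in all. Neither the body part nor the origin of a stage's libraries from separate animals is stated, and p-values reflect only how these libraries scatter, which may be technical. In such bulk RNA, fewer cells that hold a miRNA and less of it per cell cannot be told apart.

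Total counts ranged from 1462586 to 5309504 per library, a 3.63-fold range. Adult library 1 was the shallowest of the 9, and it also held the highest normalised level of miR-277-y. One predicted 18 nt entry took 59.1% to 74.0% of the counts of a library. Levels are given as normalised CPM, that is, the share of a library's total after scaling by a TMM factor (trimmed mean of M values), and are not divided by length, since a read spans the whole miRNA. A change was called where it met both limits stated by the study, an adjusted p under 0.05 and a log2 fold change beyond 1 in size.

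MicroRNAs are short RNAs that guide Argonaute proteins to messenger RNAs and lower their output, and bases 2 to 8, the seed, contribute most to the choice of target. In *Drosophila melanogaster* the genes of miR-317, miR-277 and miR-34 lie next to one another and can be processed from a shared primary transcript. In flies miR-277 controls the breakdown of branched-chain amino acids, miR-34 protects the ageing nervous system and is lowered by ecdysone, and miR-317 restrains Toll immune signalling. In mosquitoes miR-277 acts on insulin-like peptides in fat metabolism and ovary growth. Whether the genes also lie together in *O. asiaticus* was not checked, as no genome was used here.

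The sequences of the cluster entries are shown because they tell the separate miRNAs from forms of one miRNA. They are written 5′ to 3′ as DNA letters, as deposited, with the seed in capitals.
miR-277-y: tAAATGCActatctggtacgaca
miR-34-x: tGGCAGTGtggttagctggttgt
miR-34-z: tGGCAGTGtggttagctggttgtga
miR-317-y: tGAACACAgctggtggtatct
miR-317-z: tGAACACAgctggtggtatctct
miR-317-x: gGGGAGCCactctgagttcact

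The 5 entries carried 4 seeds. The seed of miR-277-y (23 nt) and that of miR-317-x (22 nt) occurred at bases 2 to 8 of no other entry among the 365. miR-317-z (23 nt) is miR-317-y (21 nt) with 2 further bases at its 3′ end, and both share 1 seed, so they are length forms of 1 sequence and are not separate miRNAs. miR-34-z, named for its shared seed and not among the 5, is in the same way miR-34-x (23 nt) with 2 further bases. The run CTGGT, picked after the sequences were seen, stood at bases 13 to 17 of miR-277-y, 10 to 14 of miR-317-y and 16 to 20 of miR-34-x, and 12 of all 365 entries (3.29%) held it. The longer run AGCTGGT was present in miR-34-x and miR-317-y but not in miR-277-y, and 5 entries held it. GC content was 39.1% in miR-277-y, 52.2% in miR-34-x, 47.6% in miR-317-y and 59.1% in miR-317-x.

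The abundant products of the cluster were miR-277-y and miR-317-y, which ranked 17 and 24 of the 365 entries by mean share of counts. miR-34-x ranked 51, miR-317-z 73 and miR-317-x 85. Every one of the 5 had counts in all 9 libraries, and all 5 passed edgeR's filter on low counts together with 174 other entries. The lowest count behind a value was 61, for miR-317-x in 5th instar libraries 1 and 2. In 5th instar library 1 this was 30.3 CPM of the listed total, with a Wilson 95% interval of 23.6 to 39.0 that covers counting error only. A further entry, miR-34-y (18 nt), chosen after its values were seen, had 7 counts in all, in 3 libraries.

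miR-277-y was the only cluster entry called as higher in adults. It stood at 1827, 1719 and 1604 normalised CPM in 3rd instar libraries 1, 2 and 3, at 1752, 1934 and 2229 in those of the 5th instar, and at 5783, 3266 and 3779 in adults 1, 2 and 3. All adult libraries lay above all 6 nymphal libraries, while the nymphal stages overlapped. Against the mean of both instars the level in adults was 2.32-fold higher (log2 fold change 1.22 ± 0.16, SE; adjusted p = 0.00127, edgeR quasi-likelihood test). This was the smallest p of the 179 entries tested, and it shared its adjusted p with miR-9-z, which was lower in adults. The separate steps gave log2 fold changes of 1.12 ± 0.20 against the 5th instar (adjusted p = 0.0151) and 1.32 ± 0.20 against the 3rd instar (adjusted p = 0.00123). Between the instars it was 0.20 ± 0.20 (5th against 3rd, adjusted p = 0.636). A test over all 3 stages gave an adjusted p of 0.00167.

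Adult 1 carried part of the size of this change. Without it, the log2 fold change was 0.93 ± 0.12 against both instars (adjusted p = 0.00139), 0.82 ± 0.14 against the 5th instar (adjusted p = 0.0133) and 1.04 ± 0.14 against the 3rd instar (adjusted p = 0.000911), so the changes against both instars and against the 5th instar passed the adjusted p but fell under the fold limit. Its coefficient of variation came to 6.51% among 3rd instar libraries, 12.2% among 5th instar libraries and 31.1% among adults. Against the 5th instar the adjusted p also missed the limit without 5th instar 1 (0.0932), without 5th instar 2 (0.0532) and without adult 3 (0.0578). It missed the limit as well with only the 2 stages in the fit (0.0848) and with library totals without factors (0.0715). Against the 3rd instar miR-277-y was called in all 20 settings that gave it a value, with log2 fold changes of 1.04 to 1.52.

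**Figure D1:**
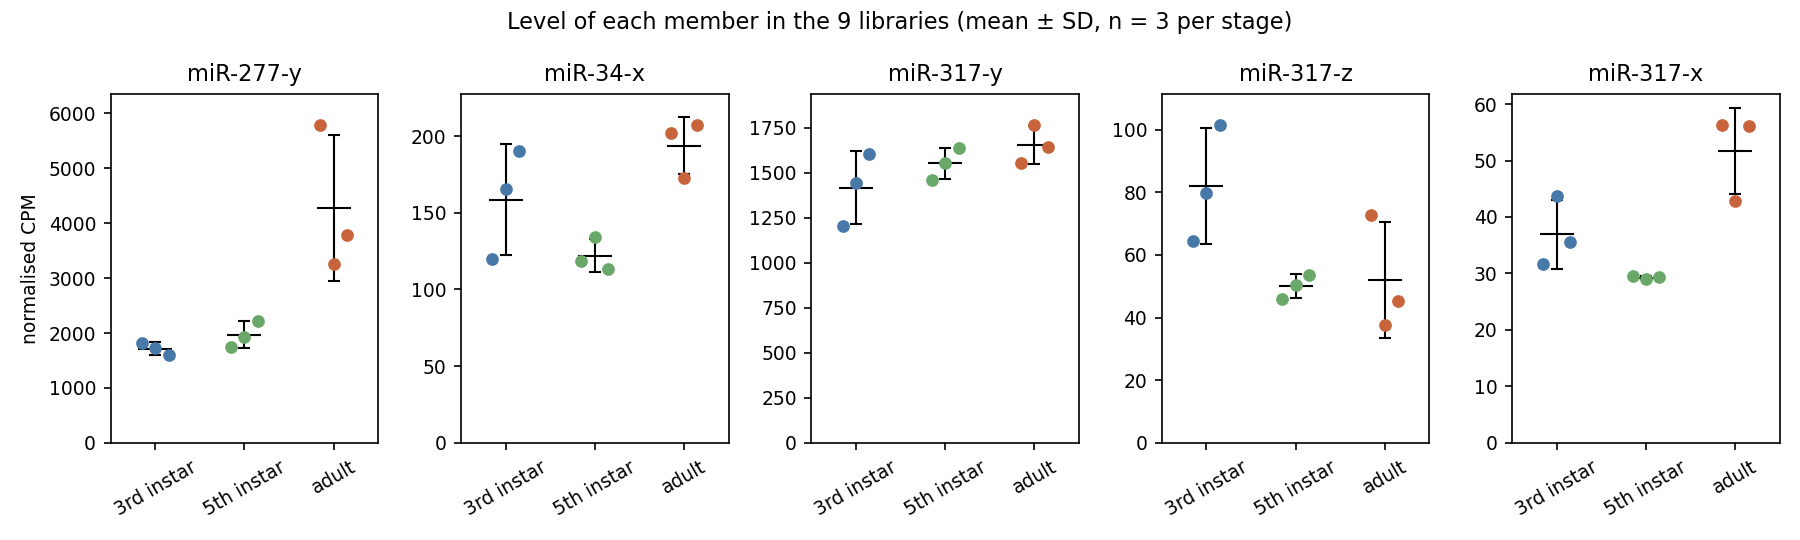
Normalised CPM (linear axes from 0) of the 5 cluster entries in each library of the 3rd instar, 5th instar and adult; points are libraries, bars the mean ± SD (n = 3). The adult points of miR-277-y lie between 3266 and 5783, above all nymphal points, whereas those of miR-317-y lie between 1556 and 1763 and overlap both instars.

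miR-34-x was lower in abundance than miR-277-y in every library. The 3rd instar libraries had 119.6, 166 and 190.4 normalised CPM of it, those of the 5th instar 119, 134 and 113, and adults 1, 2 and 3 had 202, 172 and 207. The adult libraries lay above those of the 5th instar and overlapped those of the 3rd. The log2 fold change was 0.67 ± 0.19 against the 5th instar (adjusted p = 0.173), 0.29 ± 0.19 against the 3rd (adjusted p = 0.290) and 0.48 ± 0.16 against both (adjusted p = 0.117), none of which passed. Between the instars it was -0.38 ± 0.19 (5th against 3rd, adjusted p = 0.287). By their means the stages were ordered 5th instar (122 ± 10.8), 3rd instar (159 ± 35.9) and adult (194 ± 18.6 CPM, SD, n = 3), and neighbours in this order overlapped. The longer form miR-34-z had 15, 9 and 28 counts in the 3rd instar, 9, 8 and 9 in the 5th and 19, 16 and 26 in adults. Its log2 fold change against both instars was 0.78 ± 0.42 (adjusted p = 0.241).

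miR-317-y varied least of the 5 across the 9 libraries, with a coefficient of variation of 10.4%, against 52.6% for miR-277-y, 33.2% for miR-317-z, 28.0% for miR-317-x and 23.7% for miR-34-x. It had 1201, 1441 and 1603 normalised CPM in the 3rd instar, 1461, 1555 and 1635 in the 5th and 1556, 1763 and 1639 in adults. With TMM factors all 3 stages overlapped. The log2 fold change of adults against both instars was 0.16 ± 0.12 (adjusted p = 0.419), and against the 5th instar it was 0.092 ± 0.13 (adjusted p = 0.816). Against the 3rd instar it was 0.22 ± 0.13 (adjusted p = 0.256). The value against the 5th instar turned to -0.013 with library totals in place of TMM factors. Library totals also gave 0.42 ± 0.17 in adults against the 3rd instar (adjusted p = 0.0851; median of all entries 0.23). For the 5th against the 3rd instar they gave 0.43 ± 0.17 (adjusted p = 0.131; median of all entries 0.30), where TMM factors gave 0.13 ± 0.13 (adjusted p = 0.657).

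miR-317-x bears the miR-317 name without the seed of miR-317-y. Whether it comes from the other arm of the same hairpin was not checked, so its ratio to miR-317-y is not read as an arm ratio. It had 31.7, 43.6 and 35.5 normalised CPM in the 3rd instar, 29.6, 29.0 and 29.3 in the 5th and 56.2, 42.9 and 56.0 in adults. The 5th instar libraries lay below all those of the other 2 stages. The log2 fold change was 0.82 ± 0.22 in adults against the 5th instar (adjusted p = 0.122), 0.65 ± 0.18 against both instars (adjusted p = 0.0691) and 0.48 ± 0.21 against the 3rd (adjusted p = 0.128). None passed, although 3 of 18 alternative settings brought the comparison with both instars under an adjusted p of 0.05, the lowest being 0.0390, all with a fold change under the limit.

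miR-317-z had its highest mean in the 3rd instar. It had 64.5, 79.8 and 101 normalised CPM in the 3rd instar, 46.0, 50.3 and 53.7 in the 5th and 72.8, 37.6 and 45.4 in adults. Libraries of the 5th instar lay below those of the 3rd, and adult 1 reached into the range of the 3rd instar. The log2 fold change was -0.71 ± 0.27 in the 5th against the 3rd instar (adjusted p = 0.195), -0.67 ± 0.26 in adults against the 3rd (adjusted p = 0.104; without adult 1, -0.97 ± 0.22 and adjusted p = 0.0394, short of the fold limit) and 0.046 ± 0.27 in adults against the 5th (adjusted p = 0.969). The last value had no settled sign, as 8 of 18 alternative settings made it negative.

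Set against all entries, the cluster entries stood as follows. Against both instars, 1 of the 5 was called and it was higher in adults, where the share of the 179 tested entries called was 1.12%. The fold change was positive for 4 of 5, as for 54.7% of all entries, and adult libraries lay wholly above the nymphal ones for 1, miR-277-y (5.03% of all entries). Against the 5th instar 1 of the 5 was called (1.12% of all entries), and against the 3rd instar 1 of the 5 (3.91% of all entries). Between the instars 0 of the 5 were called by edgeR (1.68% of all entries), with 1 of the 5, miR-317-z, at an unadjusted p under 0.05 (17.3% of all entries). On the adjusted p alone the numbers of members stayed at 1, 1, 1 and 0 in these 4 comparisons, beside 2.79%, 1.68%, 7.82% and 2.23% of all entries. The fold change against the 5th instar was positive for 5 of 5, as it was for 58.1% of all entries, with a median log2 fold change of 0.67 over the 5 and 0.079 over all. Against the 3rd instar it was positive for 4 of 5 (54.2% of all entries), with medians of 0.29 and 0.050. Adult libraries lay wholly above those of the 5th instar for 3 of the 5, miR-277-y, miR-34-x and miR-317-x (8.94% of all entries), and above those of the 3rd instar for 1, miR-277-y (16.2% of all entries). The 5th instar lay wholly below the 3rd for 2, miR-317-z and miR-317-x (15.1% of all entries). The comparisons share libraries, and the 5 entries include 2 forms of 1 sequence, so these counts are not independent of one another.

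**Figure D2:**
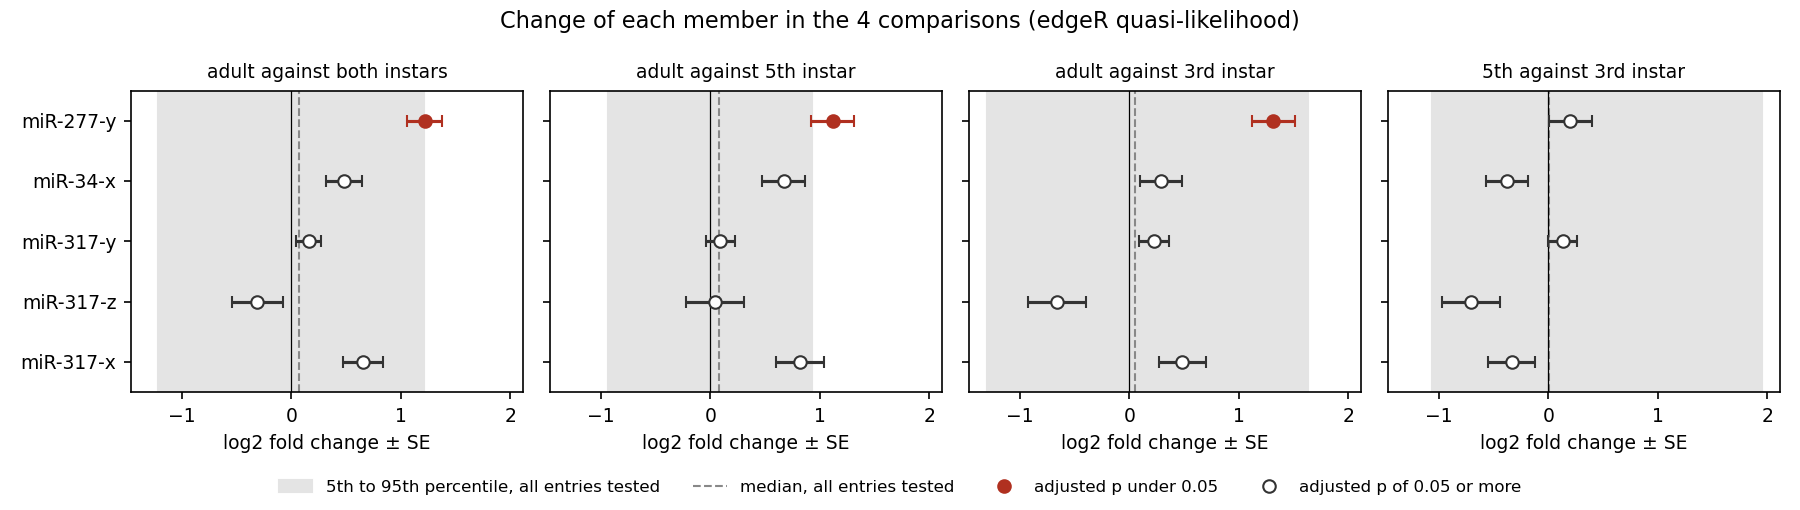
Log2 fold change ± SE (horizontal axis) of each cluster entry in the 4 comparisons; filled points have an adjusted p under 0.05, the grey band spans the 5th to 95th percentile of all 179 entries tested and the dashed line is their median. miR-277-y passed an adjusted p of 0.05 in the 3 comparisons of adults, and no other cluster entry passed in any.

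Whether cluster mates differed by the same amount was asked with the ratio of 2 entries within a library, which needs no scaling between libraries. All 10 pairs of the 5 entries were compared between the 3 adult and the 6 nymphal libraries with an exact two-sided permutation test, whose smallest possible p is 0.0238. The ratio of miR-277-y to miR-317-y was 1.52, 1.19 and 1.00 in 3rd instar libraries 1, 2 and 3, 1.20, 1.24 and 1.36 in the 5th instar, and 3.72, 1.85 and 2.31 in adults. All adult libraries lay above all nymphal ones, with a mean log2 ratio of 1.33 ± 0.51 in adults and 0.31 ± 0.20 in nymphs (SD, n = 3 and 6). The difference was 1.02, or 2.02-fold (exact p = 0.0238; 0.0595 after Benjamini-Hochberg adjustment over the 10 pairs). It was 0.73 to 1.24 with each library left out in turn.

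The 3rd instar libraries held 15.3, 10.4 and 8.42 counts of miR-277-y per count of miR-34-x, those of the 5th instar 14.8, 14.4 and 19.7, and adults 28.7, 18.9 and 18.3. The groups overlapped through 5th instar 3, and the difference of 0.69 on the log2 scale gave an exact p of 0.0714 (adjusted 0.102). It was 0.48 without adult 1, 0.41 against the 5th instar alone and 0.96 against the 3rd alone. For miR-34-x to miR-317-y the difference was 0.33 (exact p = 0.143, adjusted 0.179), made up of 0.58 against the 5th instar and 0.079 against the 3rd. For miR-317-x to miR-317-y it was 0.49 (exact p = 0.0714, adjusted 0.102), with 0.72 against the 5th instar and 0.25 against the 3rd. These single-stage values were not tested. The closest ratio was that of miR-317-x to miR-34-x, which stood at 0.265, 0.264 and 0.186 in the 3rd instar, 0.249, 0.216 and 0.259 in the 5th and 0.279, 0.249 and 0.271 in adults. Its mean log2 ratio differed by 0.16 between adults and nymphs (exact p = 0.214, adjusted 0.214).

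Of the 10 pairs, 5 had an unadjusted exact p under 0.05, as did 13.5% of all 15931 pairs of tested entries, and 0 an adjusted p under 0.05. Even pairs at the smallest possible p of 0.0238 had an adjusted p of 0.0595, so the test had little room to pass after adjustment. The 0 is therefore not read as a lack of difference. Adult and nymphal libraries did not overlap for 4 pairs, namely miR-277-y to miR-317-y and the ratios of miR-277-y, miR-34-x and miR-317-x to miR-317-z, and for 8.42% of all pairs of tested entries. All 4 pairs hold miR-277-y or miR-317-z. In the last 3 the log2 ratio differed by 1.52, 0.83 and 0.99 (exact p = 0.0238 and adjusted p = 0.0595 for each), and miR-317-z in their denominators was highest in the 3rd instar. The fifth pair under 0.05 before adjustment was miR-277-y to miR-317-x, with a difference of 0.53 (exact p = 0.0476, adjusted 0.0952). Pairs share members and libraries, so the 10 tests are not independent.

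**Figure D3:**
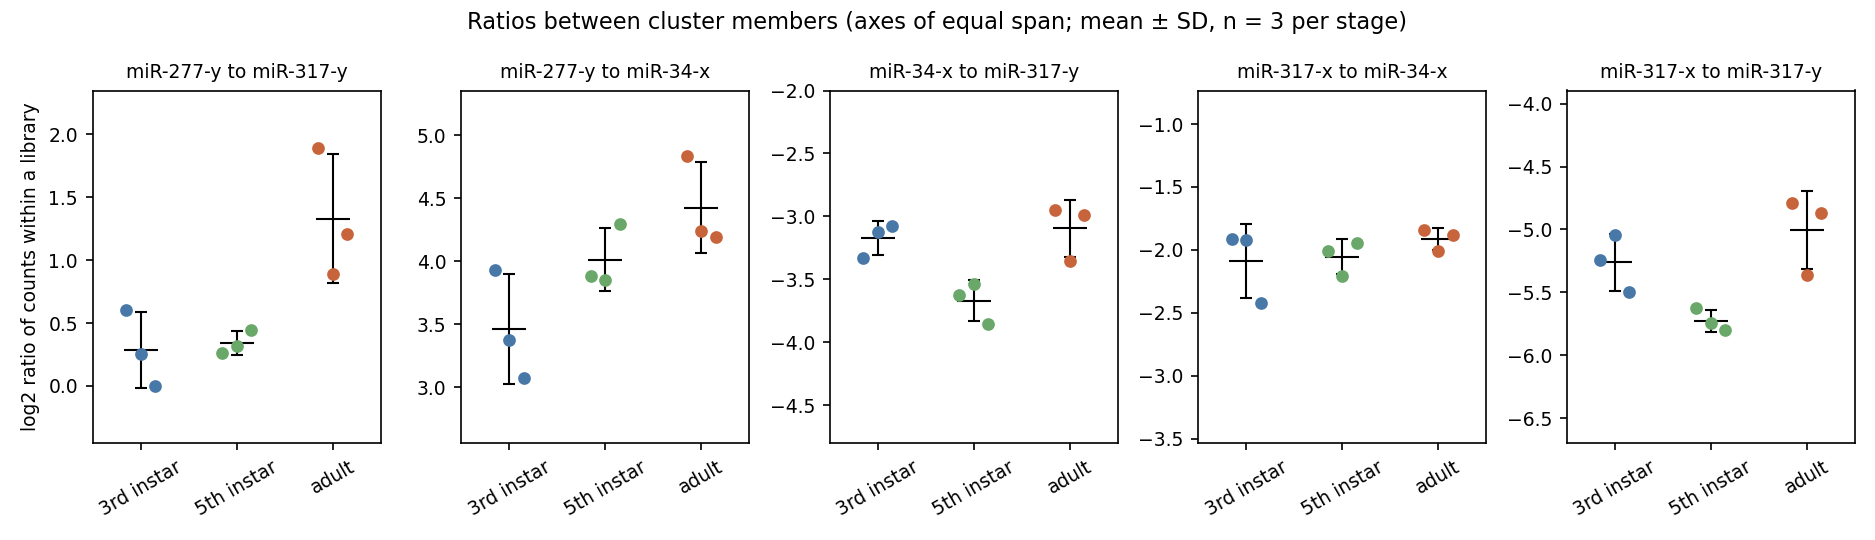
Log2 ratio of the counts of 2 cluster entries within each library for 5 of the 10 pairs, by stage; points are libraries, bars the mean ± SD (n = 3), and every axis spans the same number of log2 units. The ratio of miR-277-y to miR-317-y averages 1.33 in adults and 0.31 in nymphs, while that of miR-317-x to miR-34-x differs by 0.16.

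Of the summed counts of the 5 entries, miR-277-y made up 50.5% ± 5.50 in 3rd instar nymphs, 52.8% ± 1.82 in 5th instar nymphs and 67.7% ± 6.95 in adults (SD, n = 3). miR-317-y made up 41.4% ± 4.18, 41.7% ± 1.33 and 27.4% ± 6.63 in the same order of stages, and miR-34-x 4.63% ± 0.864, 3.30% ± 0.446 and 3.17% ± 0.499. The 5 entries together held 0.305% ± 0.0125, 0.410% ± 0.0618 and 0.642% ± 0.165 of the listed counts, again in that order.

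The longer miR-317-z made up 5.10%, 5.25% and 5.95% of both forms in 3rd instar libraries 1, 2 and 3, then 3.05%, 3.14% and 3.18% in the 5th instar and 4.47%, 2.09% and 2.69% in adults. The 5th instar libraries lay below those of the 3rd instar and close together, and adult 1 stood above the other 2 adult libraries. The log2 ratio of the longer to the shorter form was -0.83 in the 5th against the 3rd instar and -0.92 in adults against the 3rd instar, steps for which an exact test of 3 against 3 libraries cannot go below 0.10, so neither was tested. Adults against all nymphs gave -0.51 (exact p = 0.167, adjusted 0.185), a value of -0.82 without adult 1 and of -0.26 without adult 2. With the 2 forms summed, the log2 fold change of miR-317 in adults against both instars was 0.14 ± 0.12 (adjusted p = 0.465). For miR-34, the longer form made up 3.05% ± 1.02, 3.07% ± 0.418 and 3.77% ± 1.81 in the 3rd instar, the 5th instar and adults. As for miR-317, its share in adult 1 (5.86%) was above that in the other adult libraries (2.80% and 2.66%).

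Beside miR-317, there were 21 other pairs of tested known entries in which one extends the other at the 3′ end. The longer form was relatively lower in the 5th than in the 3rd instar in 17 of these 21, with a median difference in log2 ratio of -0.26. Of all 22, miR-317 had the third most negative difference in the 5th against the 3rd instar, and the second most negative in adults against the 3rd instar. Some of these pairs carry 2 family names or share an entry, and the handling of reads that match nested entries is not stated.

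**Figure D4:**
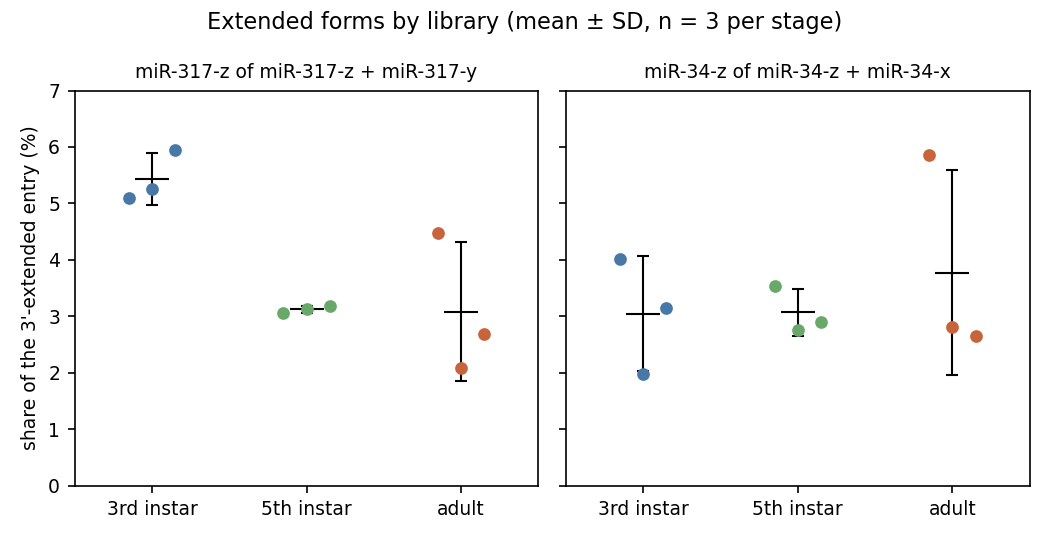
Share in percent of the 3′-extended entry among both length forms of miR-317 (left) and of miR-34 (right) in each library, by stage; points are libraries, bars the mean ± SD (n = 3). The share of miR-317-z is 5.10% to 5.95% in the 3rd instar and 3.05% to 3.18% in the 5th, while that of miR-34-z overlaps between all stages.

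Likeness of pattern was described by Pearson's r of normalised log2 CPM over the 9 libraries, which share their scaling and fall into 3 stages. Among all 178 other tested entries, the one most like miR-34-x was miR-317-x, and the one most like miR-317-x was miR-34-x, with r of 0.88 (Spearman's rho 0.82). The value was 0.79 without the 2 libraries farthest from the median of miR-317-x (adults 1 and 3), and 0.58 after each stage's mean was subtracted. For miR-277-y and miR-317-x r was 0.78, but rho was 0.38. Without the 2 farthest libraries, which were adults 1 and 3 for either entry, r was 0.31. This removal leaves adult 2 as the only adult library, so a likeness through higher levels in adults is largely removed with them. After each stage's mean was subtracted r was 0.40. For miR-277-y and miR-34-x r was 0.58 and rho 0.37. It was 0.079 without the 2 libraries farthest from the median of miR-277-y, again adults 1 and 3, and -0.015 with stage means subtracted. miR-277-y and miR-317-y had an r of 0.42, which placed miR-317-y at rank 54 of the 178 other entries, and miR-317-y and miR-317-z one of -0.32. With stage means subtracted both turned sign, to -0.36 and 0.24.

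Outside the cluster, the entries most like miR-277-y were miR-216-z (r = 0.92), miR-3477-x (0.90) and miR-1-y (0.90), the last a muscle miRNA. By sequence, miR-216-z (22 nt) is miR-283-x (20 nt) with 2 further bases at its 3′ end. It made up 1.70%, 1.64% and 2.13% of these 2 entries in the 3rd instar, the 5th instar and adults. miR-184-z, miR-307-y and miR-275-z, named below, also extend a shorter entry. So do miR-8-z, miR-14-z, let-7-z, miR-125-z, miR-100-x and bantam-y of the lists below. miR-216-z averaged 59.8 ± 8.02 normalised CPM in the 3rd instar, 75.3 ± 5.58 in the 5th and 121 ± 45.9 in adults (SD, n = 3; log2 fold change against both instars 0.85 ± 0.21, adjusted p = 0.0554). miR-3477-x had 0.44 ± 0.15 (adjusted p = 0.117). Closest to miR-34-x were miR-210-y (r = 0.81), a predicted 18 nt entry (0.79) and miR-184-z (0.66). Closest to miR-317-y were miR-2779-z (0.87), miR-7550-z (0.84) and miR-307-y (0.84). Closest to miR-317-x were miR-1-z (0.83), miR-184-z (0.81) and miR-1-y (0.77), and to miR-317-z miR-7-x (0.82), miR-9-x (0.79) and miR-275-z (0.78).

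Markers of muscle, a tissue that the samples could hold, were set beside the cluster. All 4 tested entries of miR-1 and miR-133, of 5 listed, had a positive log2 fold change in adults against both instars (0.33 to 0.66, median 0.41). The same held for 54.7% of all entries. In edgeR 0 of the 4 passed the adjusted p (2.79% of all entries). Their summed level over the 5 entries was 8706 to 11444 normalised CPM in the 3rd instar, 9529 to 10547 in the 5th and 11898 to 16727 in adults, whose libraries overlapped neither instar. miR-1-y was at 0.43 ± 0.14 (adjusted p = 0.117). Measured against the summed muscle markers of the same library, miR-277-y was 1.70-fold higher in adults, with a log2 ratio of -1.87 to -1.53 in adults and -2.73 to -2.24 in nymphs. The same ratio differed by 0.078 for miR-34-x, by 0.24 for miR-317-x and by -0.25 for miR-317-y. For miR-317-z it differed by -0.76, with -8.31 to -7.84 in adults and -7.70 to -6.42 in nymphs. The part of muscle content in the levels of the cluster entries was not tested.

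miR-7, miR-9, miR-124 and miR-137 were listed as neuron markers, and whether they mark neurons in this species was not checked. Of their 7 entries, 6 were tested. In adults against both instars 5 of the 6 had a negative log2 fold change, with a median of -0.15, where 54.7% of all entries were positive. For miR-9-z the adjusted p passed and the fold limit was missed (-0.82 ± 0.12, adjusted p = 0.00127). Their summed level was 6248 to 7471 normalised CPM in the 3rd instar, 5297 to 5910 in the 5th and 3554 to 3916 in adults, where miR-9-z gave 3261 of a mean of 3675. The part of neuron content in the levels of the cluster entries was not tested.

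Families tied to the same hormones and pathways in flies were set beside the cluster. Of the hormone-timed families let-7, miR-100 and miR-125, which rise with ecdysone in flies where miR-34 falls, 8 entries were tested. Among these, let-7-z extends let-7-x and miR-125-z extends miR-125-x at the 3′ end, so the 8 are not all separate miRNAs. In the 4 edgeR comparisons 0 of the 8 passed the adjusted p, beside 1.68% to 7.82% of all entries. In adults against both instars, 4 were positive and 4 negative, where 54.7% of all entries were positive. let-7-x was at -0.0071 ± 0.13 in that comparison (adjusted p = 0.974), miR-100-x at -0.071 ± 0.12 (adjusted p = 0.720) and miR-125-x at 0.13 ± 0.11 (adjusted p = 0.457). In the 5th against the 3rd instar 6 of the 8 were positive and 2 negative, with a median of 0.25 against 0.0036 over all entries. let-7-x had 0.36 ± 0.15 and miR-125-x 0.32 ± 0.13 (adjusted p = 0.221 for both), and miR-100-x 0.20 ± 0.14 (adjusted p = 0.483). There miR-34-x stood at -0.38 (adjusted p = 0.287), miR-317-x at -0.33 and miR-317-z at -0.71, but miR-277-y at 0.20 and miR-317-y at 0.13. None of these passed, and a part of ecdysone was not tested.

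The families of metabolism and insulin signalling were miR-8, miR-14, miR-33, miR-278, miR-305 and bantam, with 12 tested entries. Among these, miR-8-z extends miR-8-y and miR-14-z extends miR-14-y at the 3′ end, so the 12 are not all separate miRNAs. In adults against both instars 9 were positive and 3 negative, with a median of 0.15, where 54.7% of all entries were positive. There 0 of the 12 passed the adjusted p (2.79% of all entries). Against the 3rd instar 2 of the 12 passed the adjusted p (7.82% of all entries). miR-305-z rose (log2 fold change 2.54 ± 0.65, adjusted p = 0.0282), and miR-14-y fell without reaching the fold limit (-0.62 ± 0.15, adjusted p = 0.0262). miR-14-y also passed the adjusted p in the 5th against the 3rd instar (-0.65 ± 0.15, adjusted p = 0.0484), again short of the fold limit. The abundant entries of the list did not pass in adults against both instars. miR-8-y, of a family that controls growth through the fat body in flies, had 0.33 ± 0.21 (adjusted p = 0.310), miR-8-z 0.12 ± 0.27 (adjusted p = 0.778) and bantam-y, of a growth-promoting miRNA, 0.13 ± 0.15 (adjusted p = 0.568).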

How the data were processed

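Total RNA of 9 samples was size-selected on a gel (15 to 30 nt), ligated to adapters, amplified and read as 50 bp single ends on an Illumina HiSeq, per the labels' protocols. Aligner, counter and reference: not given in the sources used here. The deposited table holds raw read counts and TPM values per entry, per the file headers. The authors' TPM is the count relative to a library total without division by length, and counts of 0 appear as 0.01; it was used only to test this. The letters x, y and z are kept as deposited, and the hairpin arm of an entry was not checked.

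Counts were tested with edgeR 4.0.16 in R 4.3.3: filterByExpr by stage (179 of 365 entries), TMM factors (0.854 to 1.166), robust quasi-likelihood fit over all 9 libraries, Benjamini-Hochberg over all entries tested. Each standard error is the size of the log2 fold change over the square root of F. For adults against both instars, the mean of the instars was subtracted. Ratios between members were tested with SciPy 1.17.1. The edgeR procedure was tested on simulated counts, and the test of ratios was not.

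The members and lists were chosen with earlier results of these data known. The rule for named entries took all 5 members, entries of shared seed or nested sequence, the 3 entries most like each member, and up to 3 abundant entries per list. Outside this rule, miR-305-z and miR-14-y were named because they passed the adjusted p in these data. Alternatives were DESeq2 1.42.0, RLE factors, library totals, other filters, fewer stages, a replicate block, no fold limit, entries of 1 sequence summed and each library left out. Chosen after seeing the data were leaving out the most abundant entry, summing nested forms, single-stage ratios, other measures of likeness and the ratio to muscle markers.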

Additional observations from a re-analysis of the deposited data

How the results depend on the processing

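With each library left out in turn, the count of called entries ranged from 1 to 3 for the 5th against the 3rd instar, from 0 to 2 for adults against the 5th instar, from 3 to 9 for adults against the 3rd instar and from 1 to 4 for adults against both instars. The main counts were 3, 2, 7 and 2. Library totals without factors gave 1, 1 and 19 for the first 3 comparisons and moved the median log2 fold change of all entries in the 5th against the 3rd instar to 0.30, against 0.0036 with TMM factors. Against the 3rd instar DESeq2 called 15 entries, and an adjusted p with no fold limit 14. Against both instars DESeq2 called 4, no filter 5 and no fold limit 5, while only the compared stages in the fit gave 0 calls against the 5th instar. The log2 fold change of miR-317-z against the 5th instar turned negative with DESeq2 (-0.017), RLE factors (-0.0033), library totals (-0.043), a filter of 10 CPM (-0.015) and only the compared stages (-0.041), and ranged from -0.29 to 0.22 with a library left out. That of miR-317-y turned to -0.013 with library totals. The cause of these changes was not tested. No ratio between members changed sign in any alternative run. The labels do not say whether the replicate numbers pair the libraries. Same-numbered libraries had deviations correlated at -0.23 to 0.42 and were closest to their own number in 9 of 18 comparisons. With 3 libraries per stage this check cannot settle whether they are paired. With the replicate number as a block the counts were 2, 2, 7 and 3, miR-277-y was called in the same 3 comparisons (log2 fold change 1.19 ± 0.16 against both instars, adjusted p = 0.00421), and no other member was called. Depth limits miR-34-z, which rests on 8 to 28 counts per library, and miR-34-y, for which 0 counts allow as much as 2.05 CPM in the shallowest library (3 counts, counting error only).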
